A study of Drosophila melanogaster with 2 samples.

Results

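The cuticular protein genes named Cpr were described here by the binding of Engrailed, a homeodomain transcription factor of segment patterning, at and around them. The members were the protein-coding genes of the Ensembl annotation of Drosophila melanogaster (BDGP6, dm6 coordinates) whose symbol is Cpr followed by a digit, 70 of 13945 protein-coding genes on the main chromosome arms. The rule uses no measured value, but the family was picked with earlier results of these data known. Binding was mapped by chromatin immunoprecipitation and sequencing (ChIP-seq) in whole mixed-sex embryos, 0 to 16 h old, of the strain labelled 3T-GFP, which stably expresses Engrailed with green fluorescent protein at its C-terminus. The antibody was against the tag. There was 1 group of 2 replicates, labelled 1 and 3, and no comparison group was used, so no test across embryos was possible. Whole embryos pool all tissues, so few cells with strong binding and many with weak binding cannot be told apart. The authors' lists were 30000 regions for each replicate and 30000 for the pool, ranked by signal from peaks down to background. The 2226 peaks that passed their reproducibility procedure (irreproducible discovery rate, IDR) were the 2226 pooled regions of highest signal, 65.1 to 1022. No source used here gives the scale of the signal or the read depth.

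Insect cuticle is chitin fibres set in a matrix of structural proteins, secreted by the epidermis and by other ectodermal tissues such as the trachea and the foregut. Most Cpr proteins carry the Rebers-Riddiford consensus, a stretch that binds chitin, and their genes lie in tandem clusters. They are switched on late, when embryonic cuticle is laid down, and again in pulses around each moult. The label was checked against the translated coding sequences. A relaxed pattern of the consensus was found in 53 of 70 members (75.7%) and in 28 of 13875 other protein-coding genes (0.202%). Those 28 included the larval cuticle genes Lcp1 to Lcp4, 6 of the Ccp84A genes, Pcp and resilin. The Cpr proteins were short, with a median of 180 residues against 393 in other protein-coding genes. The genes were short too, with a median length of 1094 bp (457 to 18590) against 2166 bp over all protein-coding genes. Because a short gene offers fewer bases for a summit to fall in, most counts below stand beside 12448 genes of like length. These are all other protein-coding genes within the members' length range, weighted by length so that they follow the members.

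The sequences below show where the strongest binding near Cpr genes fell and the promoters of the Cpr genes around it. They are from the RefSeq release 6 assembly, in dm6 coordinates. The first pair are the 101 bp centred on the IDR summits of the Cpr76B and Cpr65E clusters, at 3L:19516681-19516781 and 3L:7090968-7091068, plus strand. The next pair are 101 bp at the weaker summits beside the promoters of Cpr65Av (3L:6140314-6140414) and Cpr62Ba (3L:1831747-1831847), plus strand.
Cpr76B summit: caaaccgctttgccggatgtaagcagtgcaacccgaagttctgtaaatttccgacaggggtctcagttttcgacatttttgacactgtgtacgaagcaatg
Cpr65E summit: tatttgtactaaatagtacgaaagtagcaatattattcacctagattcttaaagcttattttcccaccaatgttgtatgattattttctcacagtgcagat
Cpr65Av summit: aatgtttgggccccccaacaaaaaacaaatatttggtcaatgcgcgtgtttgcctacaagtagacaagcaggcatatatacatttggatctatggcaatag
Cpr62Ba summit: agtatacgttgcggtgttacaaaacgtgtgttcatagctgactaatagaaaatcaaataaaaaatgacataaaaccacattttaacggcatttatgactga
None of the 4 held the homeodomain core TAATTA or any of the 4 other motifs searched, so they have no capitals. Their G+C contents were 46.5%, 29.7%, 40.6% and 31.7%.

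The promoters of all 6 Cpr genes with one of these 2 IDR summits in their windows are shown from 60 bp before to 20 bp after the annotated gene start, on the gene's own strand. Capitals mark a TATAAA 20 to 45 bp before the start, which 4 of the 6 hold. They lie at 3L:7086589-7086668 (minus strand), 3L:7088768-7088847 (minus), 3L:7093144-7093223 (plus), 3L:19518313-19518392 (minus), 3L:19519589-19519668 (plus) and 3L:19520885-19520964 (plus).
Cpr65Ea promoter: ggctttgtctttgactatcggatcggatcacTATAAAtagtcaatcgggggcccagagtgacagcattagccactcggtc
Cpr65Eb promoter: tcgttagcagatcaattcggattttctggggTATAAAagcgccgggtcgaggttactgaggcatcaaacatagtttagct
Cpr65Ec promoter: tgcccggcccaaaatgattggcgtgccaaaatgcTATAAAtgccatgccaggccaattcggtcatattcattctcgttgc
Cpr76Ba promoter: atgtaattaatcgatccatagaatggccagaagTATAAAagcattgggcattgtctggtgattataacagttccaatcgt
Cpr76Bb promoter: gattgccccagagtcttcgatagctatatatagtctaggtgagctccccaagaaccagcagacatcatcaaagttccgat
Cpr76Bc promoter: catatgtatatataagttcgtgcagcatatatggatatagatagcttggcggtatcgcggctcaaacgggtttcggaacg
In the first 4, in this order, the match starts 29, 29, 26 and 27 bp upstream of the gene start, and Cpr76Bb and Cpr76Bc have none there. Over all members, 31 of 70 have none there. The Cpr76Ba stretch also holds the core taatta, outside the summit windows shown above.

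No IDR summit lay in the narrow window of any Cpr gene, its gene body with the 1000 bp upstream. The count was 0 of 70, which allows a share of up to 4.29% (3 genes of the total), with an exact Clopper-Pearson 95% interval of 0 to 5.13%. The background was 14.3% of all protein-coding genes and 9.45% of genes of like length. Counted as 43 separate units, with members less than 5000 bp apart taken as 1 unit, the count was 0 of 43 and allows up to 6.98%. Intervals and limits cover counting error only, and neighbouring genes are not independent. The 2226 regions of highest signal gave 0 of 70 in each replicate alone, against 14.3% of protein-coding genes in replicate 1 and 14.2% in replicate 3, and 9.45% and 9.32% of those of like length. Within 500 bp of a member's own transcription start site (TSS) the count was also 0 of 70, against 9.68% of protein-coding genes and 7.41% of those of like length.

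The nearest IDR summit to the start of a Cpr gene lay between 1601 and 73374 bp away. The median distance was 19561 bp, against 18046 bp for genes of like length and 16535 bp for all protein-coding genes. The members departed from the background at short range and at long range. Within 1000 bp were 0 of 70, against 8.48% of genes of like length. Within 2000 bp was 1 of 70 (1.43% against 11.8%), and within 10000 bp were 15 (21.4% against 34.9%). Within 20000 bp the shares were close, 51.4% and 52.7%, and within 50000 bp were 94.3% of members against 77.6%.

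A wide window adds 5000 bp upstream and 1000 bp downstream to the gene body, and 7 of 70 Cpr genes had an IDR summit in it. That is 10% (exact interval 4.12 to 19.5%), against 23.1% of all protein-coding genes and 18% of genes of like length, a value within the interval. The 7 genes were Cpr76Ba, Cpr76Bb, Cpr76Bc, Cpr65Ea, Cpr65Eb, Cpr65Ec and Cpr47Ef. They shared 3 summits, all intergenic, so the count of independent sites is 3, in 3 of the 43 units. All 7 encode the consensus stretch.

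The strongest lay beside the Cpr76B cluster on 3L. The region at 3L:19516632-19516826 had a pooled signal of 207 and rank 223 of 30000, with its summit at 19516731. Replicate 1 gave it a signal of 103 (rank 123) and replicate 3 a signal of 106 (rank 342). The summit was 821 bp beyond the 3′ end of Cpr76Ba (FBgn0036878, 3L:19517552-19518332, minus strand) and 1601 bp from its TSS, the nearest of any gene. Beyond Cpr76Ba on the same side, Cpr76Bb and Cpr76Bc start 2918 and 4214 bp from the summit and read away from it. The region was 195 bp wide, against a median of 396 bp in the IDR list, where 17.9% were under 300 bp.

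The Cpr65E summit lay between divergent genes. Its region, 3L:7090820-7091215 with the summit at 7091018, had a pooled signal of 83.5 (rank 1437). The replicates gave signals of 38.6 (rank 1246) and 43.5 (rank 1916). Cpr65Eb starts 2231 bp to the left and reads left, Cpr65Ec starts 2186 bp to the right and reads right, and Cpr65Ea lies behind Cpr65Eb, 4410 bp from the summit. No other gene lies in that gap. No pooled or replicate summit fell in the bodies of Cpr65Ea or Cpr65Eb. A replicate 3 region of signal 11.9 (rank 29511) fell in Cpr65Ec.

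The summit counted for Cpr47Ef was nearest to another gene. It lay at 2R:11275796-11276191, summit 11275994, with a pooled signal of 71.6 (rank 1867). Replicate 1 gave it 39.2 (rank 1213), while replicate 3 gave 33.9 (rank 3131), outside its 2226 highest. It was 708 bp upstream of TpnC47D, a troponin C gene of muscle, which stands between the summit and Cpr47Ef, and Cpr47Ef starts 3419 bp away. The other 5 genes of the 47E cluster, Cpr47Ea to Cpr47Ee, had no IDR summit in their windows. Of all 2226 IDR summits, 2 had a Cpr TSS as the nearest TSS, those of Cpr76B and Cpr65E.

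**Figure D1:**
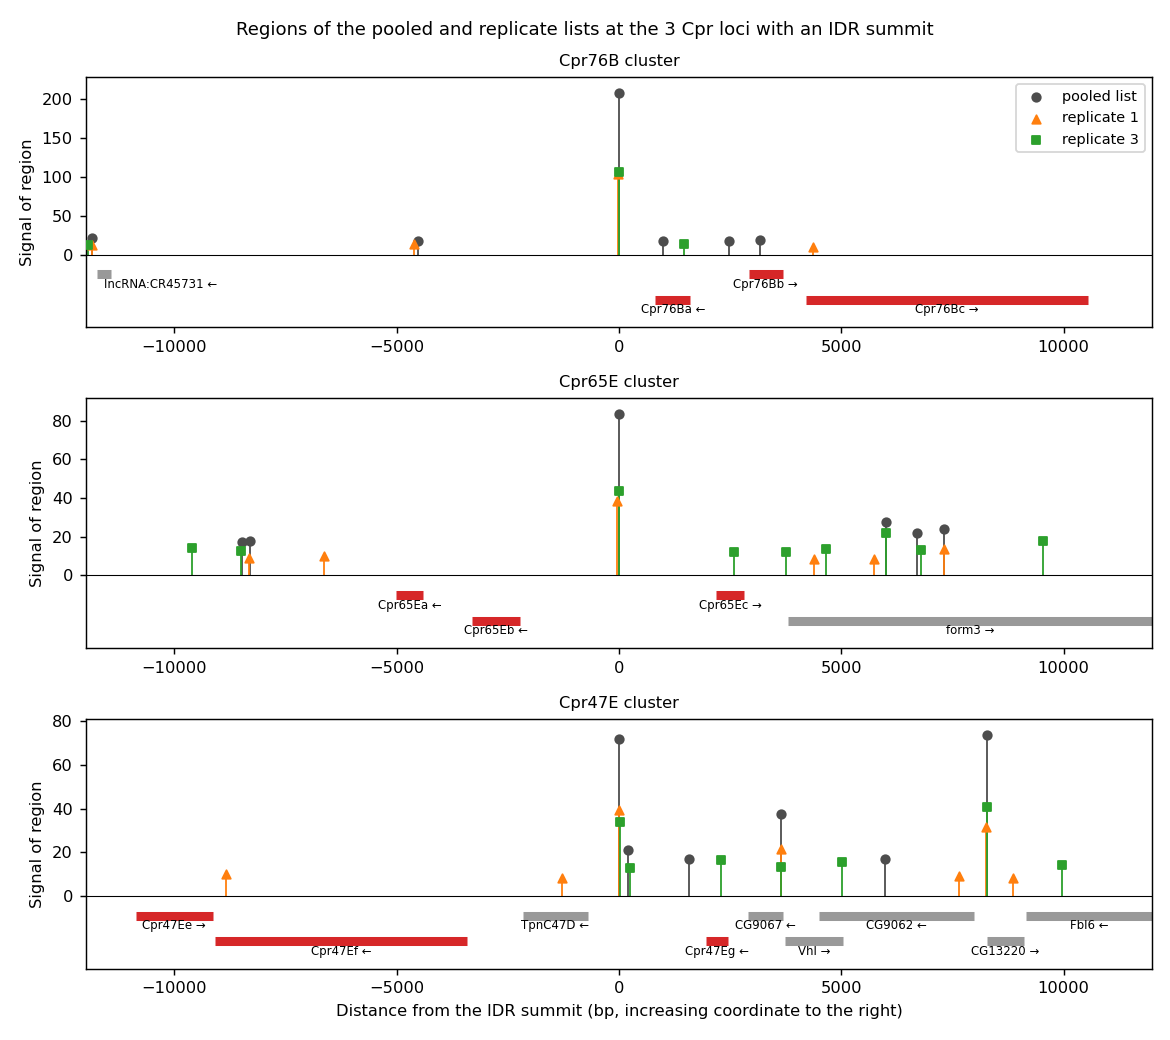
Signal of each deposited region (y axis, the authors' units) against the distance in bp of its summit from the IDR summit (x axis), for the pooled list and the 2 replicates, with Cpr genes in red, other genes in grey and arrows for their strand. At Cpr76B (207) and Cpr65E (83.5) the pooled summit lies between genes and is the highest plotted, and at Cpr47E (71.6) it lies beside TpnC47D.

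Just below the IDR list, the highest-ranked summits in Cpr windows lay at promoters of neighbouring genes. Cpr67B was the member whose highest pooled summit ranked within 1000 places below the list, at rank 3134 with a signal of 53.7, 31 bp from the TSS of eIF4E1, the cap-binding translation initiation factor. Cpr66Cb followed at rank 3361 (signal 51.5), 19 bp from the TSS of the peroxisome gene Pex2. Cpr73D stood at rank 4046 (46.9), with its summit in an intron, 524 bp from the TSS of Ogdh, a subunit of oxoglutarate dehydrogenase. Cpr51A, at rank 4950 (42.3), had its summit 1498 bp upstream of its own TSS. Its replicates were far apart, with a signal of 7.97 (rank 29578) in replicate 1 and 34.5 (rank 3031) in replicate 3. Cpr66Cb, Cpr73D and Cpr51A, like the members named below by their rank or their place, were named after their values were seen.

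Across the full pooled list, fewer Cpr genes than genes of like length had a region in the gene body or 1000 bp upstream. The count was 22 of 70, 31.4% (exact interval 20.9 to 43.6%), against 64.8% of all protein-coding genes and 53.4% of genes of like length. The gap was wide in the upper part of the list. Among the 10000 highest regions 3 of 70 members had a summit (4.29%, against 29.3% of genes of like length), and among the 20000 highest 13 had one (18.6% against 43.6%). With the wide window the shares were closer, at 67.1% (47 of 70, exact interval 54.9 to 77.9%) against 80.2% of all protein-coding genes and 73.7% of those of like length. There the replicates fell on either side of genes of like length. Replicate 1 had a region at 57 of 70 members (81.4%, against 78.0% of like length and 84.1% of all protein-coding genes), and replicate 3 at 48 (68.6%, against 74.0% and 80.6%). Per base, the narrow windows of the members also held fewer summits than those of genes of like length. They held 30 pooled summits in 222556 bp of merged narrow windows, or 1.35 per 10 kb against 3.41 per 10 kb. This density was 1.53 against 3.28 in replicate 1 and 1.30 against 3.41 in replicate 3.

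**Figure D2:**
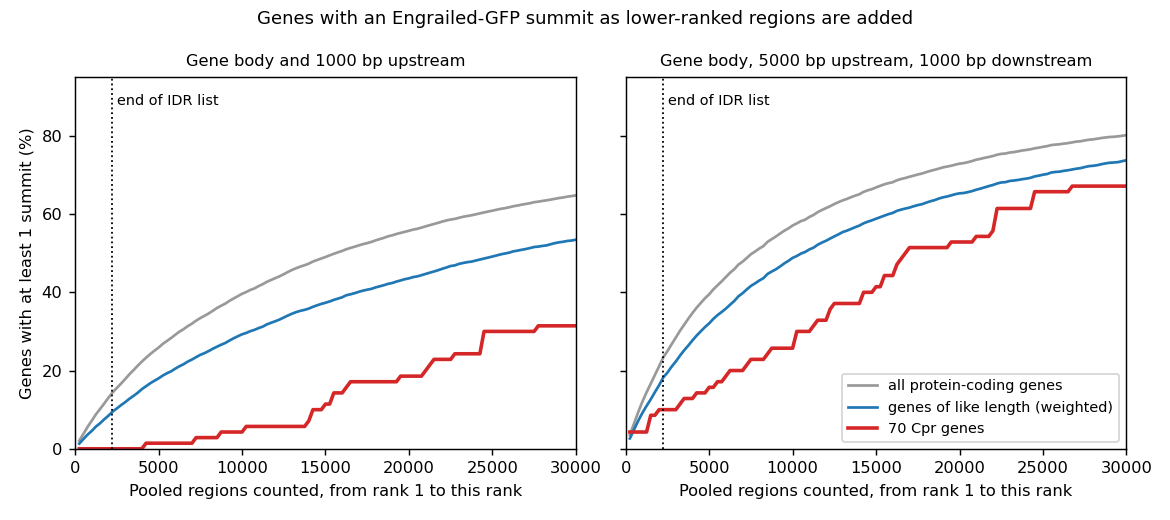
Percentage of genes with at least 1 summit (y axis) as regions are added from rank 1 down to the rank on the x axis, in the narrow and the wide window, for the 70 Cpr genes, genes of like length and all protein-coding genes. In the narrow window the Cpr curve stays at 0 beyond the IDR list and ends at 31.4%, below 53.4% and 64.8%, and in the wide window it ends at 67.1%, nearer to 73.7%.

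The 22 genes had lower signals than all protein-coding genes with a summit in the same window. The median of their highest signal was 23.7 (17.6 to 46.9), against 35.1 over all protein-coding genes with a summit in that window, and the lowest signal in the list was 16.7. In rank the members' median was 16163, against 7124. Neither comparison is matched for length, as no value is given for genes of like length. The part of gene length in these differences was not tested. The highest were Cpr73D, Cpr65Av (35.4, rank 7001), Cpr67Fb (32.1, rank 8640) and Cpr62Ba (29.6, rank 10179), and the lowest was Cpr76Ba (17.6, rank 27619). Cpr73D is the longest member at 18590 bp and shares its surroundings with Ogdh: of its 5 pooled summits, 3 had the Ogdh TSS as the nearest, the highest among them. The strongest Cpr67Fb summit, 32.1, lay 89 bp from the start of an antisense RNA gene, asRNA:CR45171, so it cannot be assigned to Cpr67Fb alone.

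At their own TSS, 10 of 70 Cpr genes had a pooled summit within 500 bp, 14.3% (exact interval 7.07 to 24.7%), against 51.2% of all protein-coding genes and 42.3% of genes of like length. They were Cpr11A, Cpr51A, Cpr57A, Cpr62Ba, Cpr65Av, Cpr67Fa1, Cpr67Fb, Cpr73D, Cpr76Bb and Cpr78Cc. The Cpr62Ba summit was closest, 14 bp from the TSS, with a signal of 8.69 in replicate 1 and 19.9 in replicate 3. Cpr65Av, 390 bp upstream of its TSS, had 19.1 and 15.5, on ranks 5061 and 18265. The Cpr78Cc summit (23.6) lay 114 bp downstream of the TSS, with 19.7 in replicate 3 and no region in replicate 1. Cpr11A (24.6, 332 bp upstream) likewise had a region in replicate 3 (18.3) and none in replicate 1, while Cpr67Fa1 (25.6, 272 bp upstream) had one in replicate 1 (13) and none in replicate 3.

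Few of the members had a region in both replicates, counted as any region of each in the window and not the same region. In the gene body and 1000 bp upstream, 27 of 70 members had a region in replicate 1, against 66.4% of protein-coding genes and 54.0% of genes of like length, a share of 38.6%. In replicate 3 the count was 22 of 70 (31.4%), against 64.6% and 52.9%. The members with a region in both numbered 10, which is 14.3%, against 42.7% of genes of like length and 56.2% of all protein-coding genes, and 31 had a region in neither. The 10 were Cpr49Ac, Cpr49Ae, Cpr50Ca, Cpr51A, Cpr62Ba, Cpr65Av, Cpr67Fa2, Cpr67Fb, Cpr73D and Cpr78Ca, and 8 of them had one in the pooled list as well. Within 500 bp of the own TSS, 11 members had a region in replicate 1 (15.7%, against 50.9% of all protein-coding genes and 42.0% of those of like length) and 13 in replicate 3 (18.6%, against 49.6% and 40.9%). They had one in both at 4 genes, Cpr51A, Cpr62Ba, Cpr65Av and Cpr73D, of 20 with one in either. At Cpr51A the pooled promoter region overlapped a region of replicate 1 (18.8) and none of replicate 3. The highest-ranked region in any narrow window was at Cpr73D in each replicate, but the regions differed. That of replicate 1 (rank 2878) lay at the Ogdh promoter, where replicate 3 had rank 16849, and that of replicate 3 (rank 3122) lay in the intron, where replicate 1 had rank 5894.

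The clusters differed from each other. Of the 43 units, 28 were single genes and 15 were clusters holding 42 members, of which 8 had 3 or more. All 7 members with an IDR summit in the wide window were in clusters. Pooled summits in the narrow window were found at 8 of the 28 single genes (28.6%) and at 14 of the 42 clustered ones (33.3%). In the larger clusters, the highest pooled signal in the windows was 207 for Cpr76B, 83.5 for Cpr65E, 71.6 for Cpr47E, 34.8 for Cpr72E (at the Cpr72Ea window, 39 bp from the TSS of ringer), 32.4 for Cpr67F (at Cpr67Fa1, in a coding exon nearest to OXA1L), 25.4 for Cpr78C (between Cpr78Ca and Cpr78Cb) and 23.7 for Cpr49Ae to Cpr49Ag (774 bp upstream of Cpr49Ae). The 4 genes Cpr64Aa to Cpr64Ad had no pooled and no replicate 3 summit in their windows, and 3 in replicate 1, the highest at rank 15242. The 3 genes Cpr78Ca, Cpr78Cb and Cpr78Cc all had a pooled summit in the narrow window, and Cpr47Ea to Cpr47Ef had none.

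Of the 70 members, 23 had no pooled summit in the wide window. The other 47 are 67.1%, against 73.7% of genes of like length and 80.2% of all protein-coding genes. In any of the pooled and replicate lists, 7 had none there: Cpr11B, Cpr49Aa, Cpr49Ab, Cpr49Ah, Cpr62Bc, Cpr76Bd and Cpr92F. No such share over other genes is given for these 7. By arm, the members with a pooled summit in the narrow window were 12 of 35 on 3L, 7 of 21 on 2R, and 1 each of 5 on 2L, of 5 on 3R and of 4 on X. Of the 17 members of 2 kb or longer, 8 had one (47.1%), against 14 of the 53 shorter ones (26.4%).

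**Figure D3:**
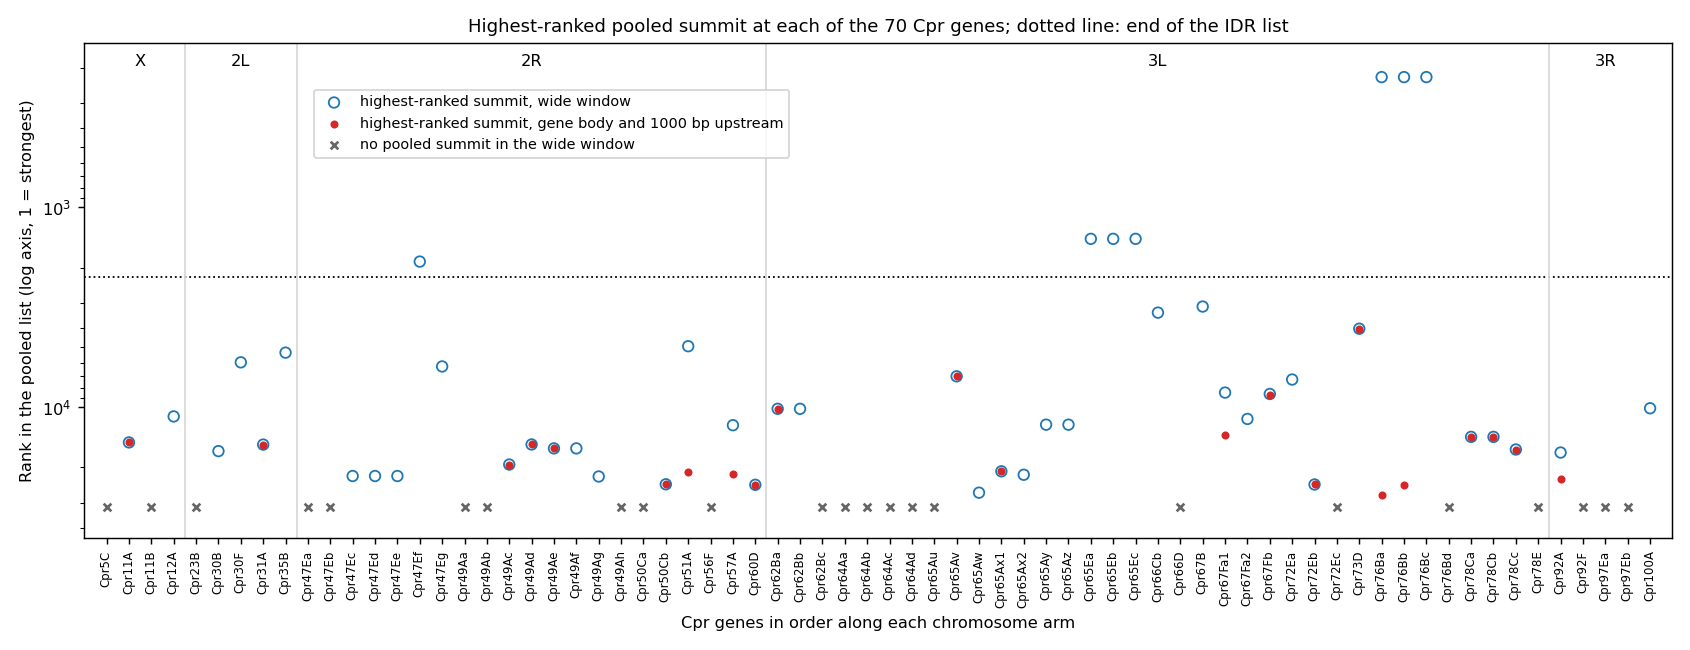
Rank of the highest pooled summit (log y axis, 1 the strongest) at each of the 70 Cpr genes (x axis, in order along each arm), in the wide window (open blue), in the gene body and 1000 bp upstream (red), or absent from the wide window (cross, 23 genes). Above the dotted end of the IDR list stand 7 open circles from 3 summits and 0 red points, the highest red point being Cpr73D at rank 4046.

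The summits in the wide windows of Cpr genes lay more often between genes than the list as a whole. Of the 84 distinct pooled summits in the wide windows, 35 were intergenic (41.7%), against 15.2% of the 30000 pooled summits, and 7 were intronic (8.33% against 38.5%). Promoters, within 500 bp of any TSS, held 28 (33.3% against 30.8%), and coding exons 6 (7.14% against 9.18%). The wide window adds flanks to short genes, and the part of gene length and of these flanks in that split was not tested. Of the 30 summits in the narrow windows, 13 were at promoters (43.3%), 8 were intergenic (26.7%) and 5 were intronic (16.7%). A Cpr TSS was the nearest TSS for 43 of the 84, and for 21 of the 30 in the narrow windows. No such count is given for other genes, here or for the IDR summits above.

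The summits were searched for 5 motifs, each on both strands within 50 bp of the summit. They were TAATTA, the homeodomain core, GAGAG of GAGA factor, CAGGTA of Zelda, ACCGGTT of Grainyhead, and TATAAA. Some can overlap by a few letters. None was found at the 3 IDR summits in Cpr windows, while TAATTA was present at 7.73% of all IDR summits and GAGAG at 10.4%, shares at which 3 summits would hold few or none. TAATTA was found at 4 of the 84 pooled summits in the wide windows. Of the 30 pooled summits in the narrow windows, 1 held TAATTA (3.33%, against 6.65% of all pooled summits), the intronic Cpr73D summit of rank 6344, and 2 held GAGAG (6.67% against 11.9%). Counts this small do not separate the members from the background. ACCGGTT was found at 1, the coding-exon summit of Cpr31A, with 2 matches over both strands.

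Cpr promoters more often held a TATAAA than other promoters. In the 250 bp before to 50 bp after the gene start, on either strand, 49 of 70 members held it (70%), against 45.8% of all protein-coding promoters. TAATTA was present in 10 (14.3% against 20.4%), GAGAG in 23 (32.9% against 29.7%), CAGGTA in 4 (5.71% against 6.24%) and ACCGGTT in 2 (2.86% against 1.86%). The mean G+C content was 45.1%, against 39.1%. On the gene's own strand and starting 20 to 45 bp upstream, where a TATA box is found, TATAAA was present at 39 of 70 members (55.7%), against 12.6% of genes of like length and 8.81% of all protein-coding genes.

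Over the genome, the share of genes with an Engrailed-GFP summit was lower where such a TATAAA was present, given here as a description. An IDR summit lay in the gene body or 1000 bp upstream of 4.07% of the 1229 protein-coding genes with it, and of 15.3% of the 12716 without it. For the pooled list the shares were 36.9% and 67.5%. Within the members' length range, without weighting, they were 38.1% of 1085 genes with it and 66.4% of 11363 without it, and for IDR summits 4.42% and 13.5%. Among the Cpr genes a pooled summit was present at 11 of 39 with TATAAA (28.2%) and at 11 of 31 without (35.5%). The 66.4% of other genes without the match is not weighted to the members' lengths, so it is not matched to the 35.5%. No test was made. The part of promoter type in the members' low counts was not tested.

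**Figure D4:**
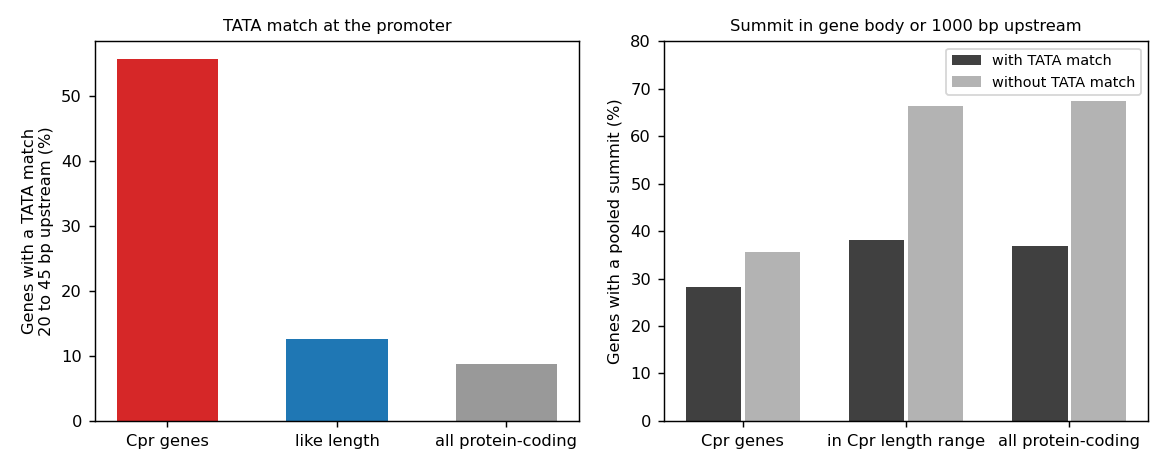
Left, percentage of genes with a TATA match on the gene strand starting 20 to 45 bp upstream, for 70 Cpr genes (55.7%), genes of like length (12.6%, weighted) and all protein-coding genes (8.81%). Right, percentage with a pooled summit in the gene body or 1000 bp upstream, split by that match, where the Cpr bars are 28.2% and 35.5% and those of all protein-coding genes 36.9% and 67.5%.

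The other structural cuticle genes are given as counts, with no test against the Cpr genes. Of 52 other cuticular protein genes (Lcp, Acp65Aa, Ccp84A, Edg, Pcp and the Tweedle genes), 0 had an IDR summit in the narrow or the wide window. The shares of all protein-coding genes were 14.3% and 23.1%. A pooled summit in the narrow window was found at 10 of the 52 (19.2%, against 64.8%). The median length of these 52 was 871 bp, and they have no share for genes of like length beside them. Taking all 81 genes with the consensus stretch, of which 53 are Cpr genes already counted, gave 0 with an IDR summit in the narrow window (against 14.3%). In the wide window 7 had one (8.64%, against 23.1%), all of them Cpr genes. A pooled summit lay in the narrow window at 19 of the 81 (23.5%, against 64.8%). The median length of the 81 was 868 bp, again without a share for genes of like length. The genes that make and modify chitin have a median length of 5228 bp. Of these, 2 of 13 had an IDR summit in the narrow window (15.4%, near the 14.3% of all protein-coding genes), mmy (signal 69.2, rank 2013), which makes the chitin precursor UDP-N-acetylglucosamine, and the chitinase gene Cht7 (93.9, rank 1188), and 11 of 13 had a pooled one (84.6%, against 64.8%). Of 8 tanning and pigment genes, of median length 5886 bp, 0 had an IDR summit in the narrow window (against 14.3%). In the wide window 1 had one (12.5%, against 23.1%), the GTP cyclohydrolase gene Pu (77.4). A pooled summit in the narrow window was found at 7 of the 8 (87.5%, against 64.8%). Ddc, dopa decarboxylase, was just below the list at 61.7, rank 2431. Of 7 regulators of epidermis and cuticle, 5 had an IDR summit in the narrow window (71.4%, against 14.3% of all protein-coding genes). In the wide window 6 had one (85.7%, against 23.1%), with Eip74EF (69.9) added, and ovo had none in either window. Eip75B (220) and Hr3 (212) are nuclear receptor genes of the ecdysone response, grh (137) encodes Grainyhead, br (98.4) is an ecdysone-response gene and ftz-f1 (87.8) a nuclear receptor gene. The median length of the 7 regulators was 50703 bp, against 1094 bp for Cpr genes, so their windows are not comparable.

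The 179 chemosensory receptor genes, with symbols Or, Gr or Ir and a digit, are a second family of tissue-specific genes. Of these, 1 had an IDR summit in the narrow window (0.559%, against 14.3% of all protein-coding genes) and 17 in the wide one (9.50%, against 23.1%). A pooled summit in the narrow window was found at 27 (15.1%, against 64.8%). Their median length was 1691 bp, and no share for genes of like length is given for them. The difference from the Cpr genes was not tested.

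Repeated sequence was not more common at Cpr genes. In the gene body and 1000 bp upstream, the mean share of positions whose 31-base word occurs more than once on the main arms was 2.47%, against 4.41% for genes of like length, with a median of 0%. The members above 10% were Cpr65Ax1 (51.5%), Cpr65Ax2 (59.9%) and Cpr73D (46.4%). Cpr65Ax1 and Cpr65Ax2 are near-identical copies, so reads from them may not have been assigned to the right gene, and the Cpr65Ax1 region (20.7, rank 20915, found in replicate 1 and not in replicate 3) is uncertain. Its summit lies 245 bp from the start of the pseudogene Lcp65APsi. Cpr73D holds the highest-ranked narrow-window summit of the pooled list and of each replicate. How its repeated positions lie against its summits is not given here, so its regions carry the same limit.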

How the data were processed

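Chromatin was broken by sonication and the libraries are labelled as biological replicates, per the labels. The authors deposited region lists derived from alignments, per the deposited descriptions, in dm6 and dm3. No source used here names the aligner, the caller or the IDR threshold, and the control library that the labels name as possible was not analysed here. The authors' signal value ranks the regions of each list. The deposited −log10 q-value reaches its maximum of 3.82 in 3340 pooled regions. The dm3 lists were not used and no coordinate was converted. Depth is unknown from the lists, so none is given behind the signals.

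A summit is column 2 plus column 10, counted from 1. Windows were strand-aware: narrow, the gene body with 1000 bp upstream, and wide, 5000 bp upstream and 1000 bp downstream. Genes of like length were non-members in 10 length bins set by the members' deciles, each bin weighted by its members; nothing was drawn at random. No test was run, since there is 1 group of 2 replicates, and no source used here says whether they came from separate collections. Window counts were checked on planted summits. Named genes were members with an IDR summit, the highest member of clusters of 3 or more, and members within 1000 ranks below the list; further names are marked where given. The members and lists were chosen with earlier results of these data known. Own-TSS counts, distances, the positioned TATAAA and repeated 31-base words were added after seeing the data. The consensus was read from translated coding sequences, as no protein table was used. Python 3.11.15, numpy 2.4.6, pandas 2.3.3, scipy 1.17.1 and Ensembl release 115 were used.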

Additional observations from a re-analysis of the deposited data

How the results depend on the processing

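The count of 0 Cpr genes with an IDR summit in the narrow window was also 0 with the 1000 strongest IDR peaks, the pooled regions of maximal q-value, overlap of at least 1 bp, summits nearest to a Cpr TSS, the longest member of each cluster, and without either replicate (0 to 0), and was 1 (Cpr73D) with the 5000 highest pooled regions. In the wide window the count of 7 was 3 with the 1000 strongest peaks, 11 with the 5000 highest pooled regions, 3 with the longest member of each cluster, 6 with summits nearest to a Cpr TSS, 8 with maximal q-value, and 6 to 7 when 1 replicate was left out. The 3 units with an IDR summit were 4 with 2000 bp and 3 with 10000 bp as the joining distance. The 22 members with a pooled summit fell to 8 in the upper 15000 regions, which holds fewer regions, and were 22 to 27 without 1 replicate. The 10 with a region in both replicates compare with 22 to 27 in 1 replicate alone. Summits per 10 kb were 1.30 to 1.53. The median highest signal was 23.7, and 27.2 with the wide window. No paired analysis was possible because there is 1 group. Depth is unknown, so regions below the lists' lowest signal could not be seen.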
